A study of Rattus norvegicus with 24 samples.

Results

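The genes of the proteasome were followed across 5 groups of RBEC4 cells, a rat line used as a model of the brain capillary endothelium, with and without silver nanoparticles. Every probe of the array whose gene symbol starts with Psma, Psmb, Psmc, Psmd, Psme, Psmf or Psmg and a digit was taken, which gave 44 of 22523 probes, for 43 genes. A level is given for the 20 probes, of 20 genes, whose detection p was under 0.01 on at least 4 of the 24 arrays. Over the whole array 2774 probes met that filter. All cells were grown to 95% confluence, and the treated ones received particles at 1 ppm for 18 h. The control group had no particles (4 arrays). PVP10 and PVP75 received particles of 10 or 75 nm coated with polyvinylpyrrolidone (PVP), and citrate10 and citrate75 received particles of 10 or 75 nm coated with citrate (5 arrays each). RBEC4 is a single line in culture, and the labels do not say whether arrays of a group came from separate cultures. The p-values therefore measure the spread between these arrays, which may be technical.

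The 26S proteasome degrades proteins that carry chains of ubiquitin. Its 20S core is a barrel in which rings of alpha subunits gate the entry and rings of beta subunits hold the proteolytic sites. The 19S cap at its ends has a ring of ATPases, which unfold the substrate and thread it into the core, and non-ATPase subunits, which receive the substrate and remove its ubiquitin. Other caps (activators) and, in immune cells or after interferon, other catalytic beta subunits can replace the standard parts. Subunit genes are known to be transcribed together through NFE2L1, a factor that binds antioxidant response elements when proteasome activity falls short.

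The core, the cap and the activators each had at least 1 measured gene. Detection was complete, on all 24 arrays, for 14 genes: Psma1, Psma2 and Psma7 of the alpha ring, Psmb2, Psmb3 and Psmb4 of the beta ring, the ATPases Psmc4 and Psmc5, and the non-ATPase subunits Psmd2, Psmd3, Psmd4, Psmd11, Psmd12 and Psmd13. The other 6 kept probes were detected on some arrays: Psmb10 on 21, Psma4 on 13, and Psmb1, Psmb5, Psmc3 and Psme4 on 5 each. Among the genes with a probe, 4 of 8 alpha genes, 5 of 7 standard beta genes, 1 of 4 immunoproteasome or thymoproteasome genes, 3 of 6 ATPase genes, 6 of 10 non-ATPase genes and 1 of 3 activator genes were kept. No probe carried the symbol Psmd14, Psme3 or Psmf1, so these counts are not shares of the whole complex.

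The remaining 24 probes were detected on 0 arrays, so these genes, apart from Psmb10 with its other probe, have no measured level here. They were Psma3, Psma5, Psma6 and Psma8 of the alpha ring, Psmb6 and Psmb7, which carry catalytic sites of the standard core, the immunoproteasome subunits Psmb8 and Psmb9 and a second probe of Psmb10, the thymus subunit Psmb11, the ATPases Psmc1, Psmc2 and Psmc6, and the cap subunits Psmd1, Psmd6, Psmd7 and Psmd8. The assembly chaperones Psmd5 and Psmd9 of the cap and Psmg1 and Psmg2 of the core were also among them, as were the activators Psme1 and Psme2. The symbol rule also takes Psmc3ip, a cofactor of meiotic recombination and not a subunit, which was detected on 0 arrays too.

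Between 2128 and 2576 probes were detected per array, and arrays of a group correlated at r between 0.981 and 0.996 across the kept probes. The arrays lay on 2 BeadChips, with 1 of 4 control arrays and 4 of 5 PVP75 arrays on chip 1 and the other groups spread over both, so the chip was a term of the fit. Of 11 endothelial marker genes with a probe, Tjp1 was detected on every array, Tie1 on 6 and Cldn5 on 1, while 8 others, Cdh5 and Vwf among them, were detected on 0. The numbers of detected probes overlapped between all groups. Fewer cells and less RNA per cell cannot be told apart in such bulk samples.

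In PVP10, proteasome genes rose against control in the alpha ring, the beta ring and both parts of the cap. Called genes were 4 of 4 kept in the alpha ring and 3 of 5 in the beta ring. In the cap they were 1 of 3 ATPases and 6 of 6 non-ATPase subunits. The kept immunoproteasome and activator genes were not called. Of the 14 members detected on every array, 13 rose and 0 fell (limma, Benjamini-Hochberg adjusted p under 0.05), with a median log2 fold change of 0.63. Among all 1804 probes detected on every array, 25.3% were called higher. Over the 20 kept members 14 rose and 0 fell, with a median of 0.48, against a median of -0.01 and calls of 20.1% higher and 21.4% lower over all 2774 probes tested. Every PVP10 array lay above every control array for 11 of the 20, as it did for 16.9% of all probes. In this fit the largest rises were in Psmb2 (2.13-fold), Psma1 (1.99-fold), Psmd13 (1.79-fold), Psma2 (1.72-fold) and Psmd12 (1.70-fold), and the smallest among the called genes were in Psmc4 (1.18-fold) and Psmb4 (1.17-fold). These sizes and their order depended on the background correction and the scaling. Without background correction the same 14 genes were called, but the median over the 20 kept members was 0.34 and the largest rises were in Psmb2 (0.81), Psmd12 (0.73) and Psmd2 (0.62), in log2 units.

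**Figure D1:**
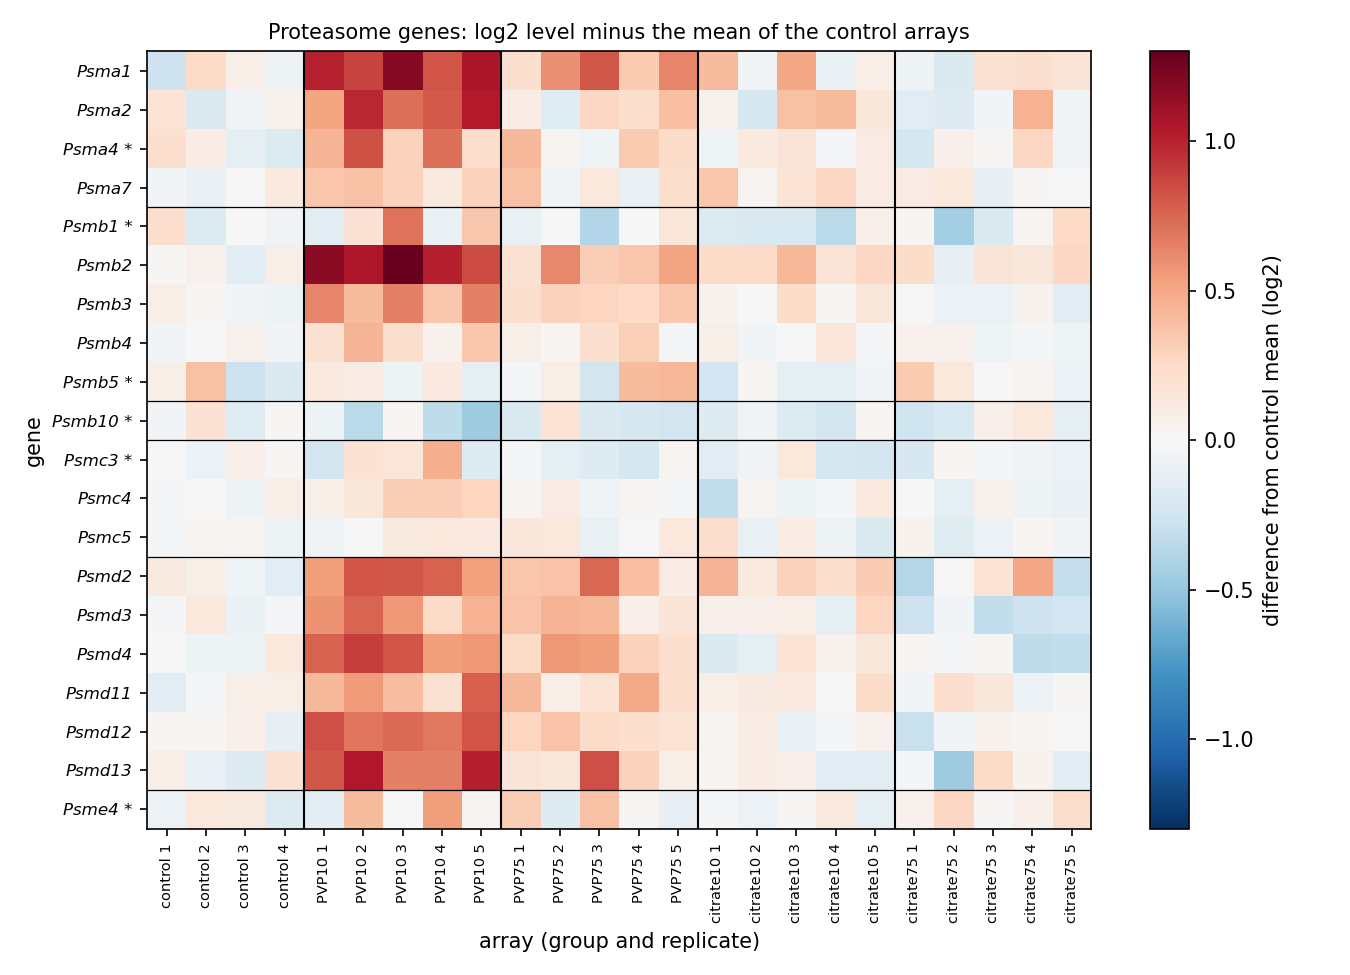
Each cell gives the normalized log2 level of a kept proteasome gene (rows, grouped by subcomplex, with * for genes not detected on all 24 arrays) on 1 array (columns, by group and replicate) minus the mean of the 4 control arrays, red for higher and blue for lower. The 5 PVP10 columns are red for most rows, the PVP75 columns are paler, and the citrate columns stay near the control level, while Psmb10 is at its deepest blue on 3 PVP10 arrays.

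The shift was present on each PVP10 array. The median difference from the control mean over the 14 fully detected members lay between -0.04 and 0.01 on the control arrays and between 0.45 and 0.73 on the PVP10 arrays, in log2 units. It lay between 0.20 and 0.28 on the PVP75 arrays, between 0.01 and 0.15 on the citrate10 arrays and between -0.06 and 0.03 on the citrate75 arrays. The ranges of PVP10 and PVP75 overlapped neither each other nor any other group.

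All 4 measured alpha ring genes rose in PVP10. Psma1 is a subunit of the alpha ring. Its log2 levels were 5.12, 5.64, 5.46 and 5.32 on the control arrays and 6.38, 6.26, 6.57, 6.20 and 6.45 on the PVP10 arrays. They were 5.60, 5.98, 6.19, 5.72 and 6.02 with PVP75. Citrate10 gave 5.80, 5.35, 5.89, 5.30 and 5.47, and citrate75 gave 5.32, 5.20, 5.58, 5.59 and 5.55. Every PVP10 value lay above every value of the other 4 groups, and the control and citrate ranges overlapped. The group means were 5.39 ± 0.218 (SD, n = 4) in control and 6.37 ± 0.147 (SD, n = 5) in PVP10, with a log2 fold change of 1.00 (SE 0.135, limma adjusted p = 6.14e-07).

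Psma2, another alpha ring subunit, is given in full because its size effect differed between the coatings, a choice made after its values were seen. The control arrays had log2 levels of 5.998, 5.63, 5.77 and 5.86, and the PVP10 arrays had 6.32, 6.79, 6.53, 6.61 and 6.84. PVP75 followed with 5.91, 5.65, 6.09, 6.04 and 6.20. The levels were 5.87, 5.61, 6.20, 6.23 and 5.97 in citrate10 and 5.66, 5.65, 5.78, 6.27 and 5.78 in citrate75. Every PVP10 value was above every control and PVP75 value, while the PVP75 range overlapped that of control. Psma2 rose by 0.78 in PVP10 (SE 0.133, limma adjusted p = 1.93e-05). Psma4, which was detected on 5 of 5 PVP10 arrays and 1 of 4 control arrays and so passed the filter mainly through the particle groups, rose from 4.80 ± 0.185 (SD, n = 4) to 5.30 ± 0.260 (SD, n = 5), a log2 fold change of 0.51 (limma adjusted p = 0.00147). Psma7 rose by 0.28 (SE 0.0936, limma adjusted p = 0.0176), from 13.42 ± 0.0887 (SD, n = 4) to 13.71 ± 0.101 (SD, n = 5), and the groups overlapped. The call of Psma7 was lost without control replicate 2, without control replicate 3 or without PVP10 replicate 1, with adjusted p from 0.0502 to 0.0752, and on either chip alone.

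Of 5 measured beta ring genes, Psmb2, Psmb3 and Psmb4 rose in PVP10, and Psmb1 and Psmb5 did not pass the test. Psmb2, a beta ring subunit without a catalytic site, had the largest fold change of all kept proteasome genes in this fit. On chip 1 alone it was 1.09 and that of Psmd13 was 1.198. In log2 units Psmb2 stood at 7.19, 7.23, 7.03 and 7.26 in control and at 8.35, 8.22, 8.46, 8.18 and 8.02 in PVP10. In PVP75 it stood at 7.37, 7.80, 7.50, 7.54 and 7.69. Its levels with citrate were 7.43, 7.42, 7.61, 7.34 and 7.44 at 10 nm and 7.41, 7.07, 7.34, 7.33 and 7.45 at 75 nm. The PVP10 values all lay above those of the other groups, and the citrate10 values all lay above those of control. The means were 7.18 ± 0.102 (SD, n = 4) in control and 8.25 ± 0.167 (SD, n = 5) in PVP10, and the log2 fold change was 1.09 (SE 0.0966, limma adjusted p = 3.83e-10).

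Psmb3, also a beta ring subunit without a catalytic site, lay above control on every PVP array. Its log2 levels were 11.21, 11.13, 11.08 and 11.05 on the control arrays and 11.76, 11.53, 11.77, 11.47 and 11.77 on the PVP10 arrays. They were 11.33, 11.41, 11.39, 11.38 and 11.47 with PVP75. Citrate10 gave 11.17, 11.12, 11.36, 11.14 and 11.27, and citrate75 gave 11.11, 11.04, 11.04, 11.16 and 10.98. The PVP10 and PVP75 arrays all lay above the control arrays, and the lowest PVP10 array equalled the highest PVP75 array. The mean rose from 11.12 ± 0.0673 (SD, n = 4) in control to 11.66 ± 0.149 (SD, n = 5) in PVP10, a log2 fold change of 0.54 (SE 0.0842, limma adjusted p = 5.05e-06). Psmb4 rose by 0.23 (SE 0.0802, limma adjusted p = 0.0204) with overlapping groups. Its call was lost without control replicate 3 or PVP10 replicate 2, with adjusted p of up to 0.063, and on either chip alone.

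The remaining beta ring genes lay near the detection limit. Psmb5, which carries the chymotrypsin-like site, was above the detection limit on 1 control and 1 PVP10 array, with a log2 fold change of 0.04 (95% interval -0.23 to 0.31). For Psmb1, above that limit on 1 control and 2 PVP10 arrays, the test gave a log2 fold change of 0.20 (95% interval -0.10 to 0.51). Both intervals end below the estimate for Psmb2, although levels this close to background understate a difference.

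Promoters were read because subunit genes are known to share antioxidant response elements. The core of that element, TGACNNNGC, was searched on both strands in the window from 250 bases before to 50 bases after the annotated start, in RefSeq promoters of the GRCr8 assembly, and no other motif was searched. Of 43 member genes 39 had a promoter in the table, and 8 of them (20.5%) held a match, against 4038 of 33469 promoters in all (12.1%). The share was 4 of 18 (22.2%) among kept members and 4 of 21 (19%) among those not kept. The kept members with a match were Psmb2, Psmb5, Psme4 and Psmd3, and the others were Psma3, Psmb6, Psmd1 and Psmd9. The 250 bases before the start are shown for Psmb2, which was called and had a match, for Psmb5, which had a match and no call, and for Psma1, which was called and had no match. They run 5′ to 3′ on the gene's strand, with the matched core in capitals, and lie at chr5:144254808-144255057 (plus strand) for Psmb2, chr15:32047380-32047629 (minus strand) for Psmb5 and chr1:177887858-177888107 (minus strand) for Psma1.
Psmb2: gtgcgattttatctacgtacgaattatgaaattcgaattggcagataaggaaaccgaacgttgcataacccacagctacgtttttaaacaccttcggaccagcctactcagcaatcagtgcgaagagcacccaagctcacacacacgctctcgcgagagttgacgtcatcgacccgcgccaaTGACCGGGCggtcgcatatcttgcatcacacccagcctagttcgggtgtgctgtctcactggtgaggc
Psmb5: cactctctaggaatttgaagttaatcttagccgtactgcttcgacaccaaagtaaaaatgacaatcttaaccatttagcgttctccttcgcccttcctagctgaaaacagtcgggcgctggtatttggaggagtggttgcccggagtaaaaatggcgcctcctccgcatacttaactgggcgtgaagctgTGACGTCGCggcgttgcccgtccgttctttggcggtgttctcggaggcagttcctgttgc
Psma1: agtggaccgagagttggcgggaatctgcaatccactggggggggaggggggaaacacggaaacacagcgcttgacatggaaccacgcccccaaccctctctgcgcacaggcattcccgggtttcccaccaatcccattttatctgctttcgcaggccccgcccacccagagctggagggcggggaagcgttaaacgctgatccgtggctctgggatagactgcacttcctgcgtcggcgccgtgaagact
The first base of the core lay 68 bases before the start in Psmb2 and 60 bases before it in Psmb5. These matches are descriptions of the letters and not of binding.

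Psmb10 encodes the inducible subunit that takes the place of a standard catalytic beta subunit in the immunoproteasome. It was the only kept member with a lower estimate in PVP10 than in control. The control arrays had log2 levels of 5.25, 5.47, 5.12 and 5.29, and the PVP10 arrays had 5.22, 4.93, 5.31, 4.95 and 4.82. PVP75 followed with 5.09, 5.46, 5.09, 5.07 and 5.05. The levels were 5.11, 5.24, 5.11, 5.05 and 5.30 in citrate10 and 5.03, 5.09, 5.35, 5.42 and 5.16 in citrate75. The control and PVP10 ranges overlapped, with 3 of 5 PVP10 arrays below every control array. This probe was detected on 3 of 5 PVP10 arrays and on 4 of 4 control arrays. Of the 3 low arrays, PVP10 replicates 2 and 5 lay under the dimmest detected signal of their array (5.05 and 4.95). The log2 fold change was -0.20 (SE 0.0836, limma adjusted p = 0.0589), which did not pass the threshold. It passed without control replicate 1 or without PVP10 replicate 3, with adjusted p of 0.0462 and 0.0296, and with array weights (adjusted p = 0.0393). Psmb10 was also the only member called for the chip, being 0.26 higher on chip 2 (limma adjusted p = 0.0162). In PVP75 it differed by 0.01 and in the citrate groups by -0.08 and 0.02, with no call.

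The ATPase ring showed small differences in this fit. Psmc4, an ATPase of the cap, rose in PVP10 by 0.24 (SE 0.0864, limma adjusted p = 0.0281), from 12.18 ± 0.0600 (SD, n = 4) to 12.41 ± 0.110 (SD, n = 5). That call was lost when any of 6 arrays was left out (control replicates 1, 2 and 3 and PVP10 replicates 3, 4 and 5), with adjusted p between 0.0538 and 0.0787, and on either chip alone. Psmc5, another ATPase of the ring, was the 1 fully detected member that did not pass, with means of 10.95 ± 0.0491 (SD, n = 4) and 11.02 ± 0.0812 (SD, n = 5), a log2 fold change of 0.07 and a 95% interval from -0.11 to 0.25. Psmc3 was detected on 3 of 5 PVP10 arrays and 0 of 4 control arrays, so its difference is only a bound, of at least 1.025-fold. With the undetected control levels taken as measured, it was not called (0.08, 95% interval -0.15 to 0.31, limma adjusted p = 0.632), and the groups overlapped. Of its 5 detections 3 were in PVP10, so it passed the filter through that group.

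All 6 measured non-ATPase subunits of the cap rose in PVP10, by 0.45 to 0.84 with a median of 0.72. Psmd12, a structural subunit of the lid, had the smallest p of these. In log2 units Psmd12 stood at 10.44, 10.42, 10.47 and 10.30 in control and at 11.24, 11.11, 11.15, 11.10 and 11.22 in PVP10. In PVP75 it stood at 10.69, 10.78, 10.65, 10.62 and 10.59. Its levels with citrate were 10.45, 10.50, 10.31, 10.40 and 10.46 at 10 nm and 10.12, 10.37, 10.45, 10.43 and 10.41 at 75 nm. The PVP10 arrays lay above all others, and the PVP75 arrays lay above the control and citrate arrays without overlap. The mean rose from 10.41 ± 0.0747 (SD, n = 4) to 11.16 ± 0.0670 (SD, n = 5), a log2 fold change of 0.77 (SE 0.0798, limma adjusted p = 6.52e-09).

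Psmd4 encodes a receptor for ubiquitin chains on the cap. Its log2 levels were 8.25, 8.17, 8.17 and 8.38 on the control arrays and 9.01, 9.14, 9.06, 8.79 and 8.81 on the PVP10 arrays. They were 8.49, 8.81, 8.78, 8.55 and 8.46 with PVP75. Citrate10 gave 8.05, 8.13, 8.43, 8.29 and 8.39, and citrate75 gave 8.26, 8.23, 8.26, 7.92 and 7.93. All PVP10 and all PVP75 arrays were above the highest control array, and the ranges of PVP10 and PVP75 overlapped. The log2 fold change in PVP10 was 0.72 (SE 0.109, limma adjusted p = 3.84e-06).

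Psmd13, a structural subunit of the lid, had the largest rise within the cap in this fit, but Psmd12 had a larger one with 75th percentile scaling (1.04 against 0.84) and without background correction (0.73 against 0.55). The control arrays had log2 levels of 6.83, 6.66, 6.58 and 6.94, and the PVP10 arrays had 7.56, 7.80, 7.41, 7.41 and 7.77. PVP75 followed with 6.93, 6.90, 7.60, 7.06 and 6.83. The levels were 6.79, 6.85, 6.82, 6.61 and 6.61 in citrate10 and 6.72, 6.29, 6.999, 6.80 and 6.61 in citrate75. The PVP10 range lay above that of control, and 1 PVP75 array, replicate 3, reached into the PVP10 range. The log2 fold change was 0.84 (SE 0.139, limma adjusted p = 1.35e-05).

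Psmd2, the large scaffold of the base that docks ubiquitin receptors and shuttles, rose by 0.72 in PVP10 (SE 0.131, limma adjusted p = 5.32e-05), from 8.49 ± 0.121 (SD, n = 4) to 9.18 ± 0.144 (SD, n = 5). Psmd3, a lid subunit, rose by 0.53 (SE 0.104, limma adjusted p = 0.000152). Psmd11, a lid subunit that clamps the cap to the core, rose by 0.45 (SE 0.0998, limma adjusted p = 0.000475). In each of these genes every PVP10 array lay above every control array. Psme4, an activator that caps the core without ATPases, reached detection on 2 PVP10 arrays and on 0 in control. Its difference is therefore only a bound, of at least 1.016-fold. With the undetected control levels taken as measured, Psme4 was not called (0.15, 95% interval -0.10 to 0.39, limma adjusted p = 0.381), and the groups overlapped.

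**Figure D2:**
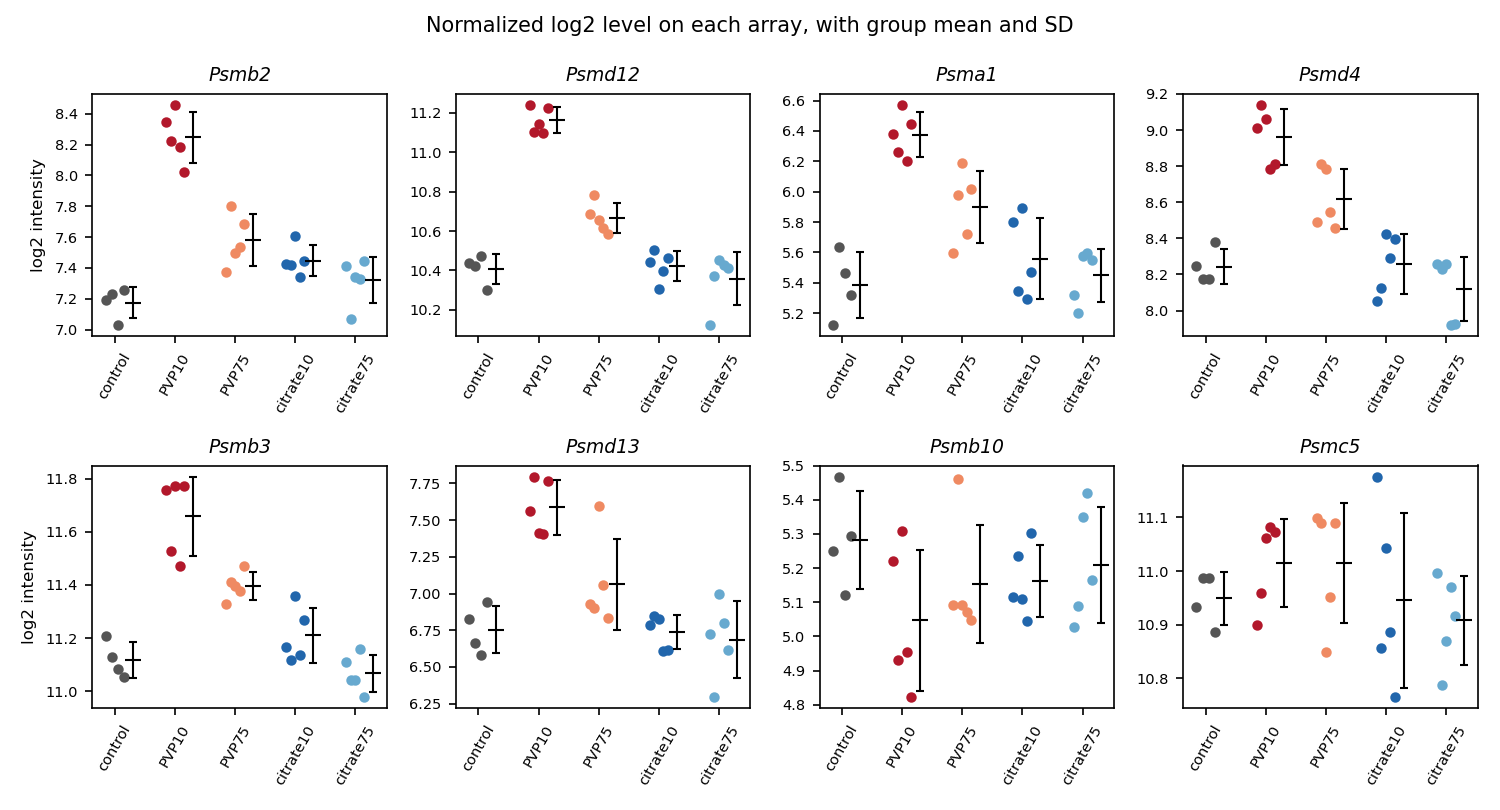
Normalized log2 intensity on each array (points) for 8 proteasome genes by group, with the group mean and SD beside the points. Every PVP10 point lies above every control point in the first 6 panels, whereas Psmb10 and Psmc5 overlap in all groups.

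Of the 14 genes called in PVP10, 11 kept their call when any 1 of the 24 arrays was left out, Psma7, Psmb4 and Psmc4 being the exceptions. On chip 2 alone 11 of the 20 were called, with 37.9% of all probes called in either direction. On chip 1, which held 1 control array, 7 were called, with 13.2% of all probes, where the fit of both chips called 41.5%. Psma4, Psmb3, Psmd2 and Psmd11 lost their call on chip 1 with adjusted p between 0.052 and 0.103. The 7 genes that kept their call under all alternatives run were Psma1, Psma2, Psmb2, Psmd3, Psmd4, Psmd12 and Psmd13.

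The size of the rise depended on the scaling for genes with bright probes and on the background correction for genes with dim ones. Scaling each array to its 75th percentile in place of quantile normalization raised the log2 fold change in PVP10 of Psmc4 from 0.24 to 0.63, of Psmb4 from 0.23 to 0.55, of Psma7 from 0.28 to 0.54, of Psmb3 from 0.54 to 0.86, of Psmd11 from 0.45 to 0.71, of Psmd12 from 0.77 to 1.04 and of Psmd3 from 0.53 to 0.77. Psmc5 went from 0.07 to 0.34 and was then called (limma adjusted p = 0.00523). Other bright probes moved too. Over all 99 kept probes with a mean log2 level above 12 the median went from -0.03 to 0.24, and over the 208 between 10 and 12 it went from -0.04 to 0.21. Relative to these medians, the members above 12 stood at 0.26 against -0.03 with quantile normalization and at 0.59 against 0.24 with scaling. Scaling left Psmb2 at 1.09 and took Psma1 from 1.00 to 0.99, Psmb10 from -0.20 to -0.12 and Psmb5 from 0.04 to 0.13. Without background correction the dim probes had smaller differences. Psma1 went from 1.00 to 0.44, Psma2 from 0.78 to 0.40, Psma4 from 0.51 to 0.17, Psmd13 from 0.84 to 0.55, Psmb2 from 1.09 to 0.81 and Psmb10 from -0.20 to -0.07. The authors' normalized table gave the same values at this rounding, and Psmd12, with a bright probe, went from 0.77 to 0.73 in both. With 75th percentile scaling the log2 fold change of Psmb3 in PVP75 went from 0.29 to 0.47 and was then called (limma adjusted p = 0.00594).

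**Figure D3:**
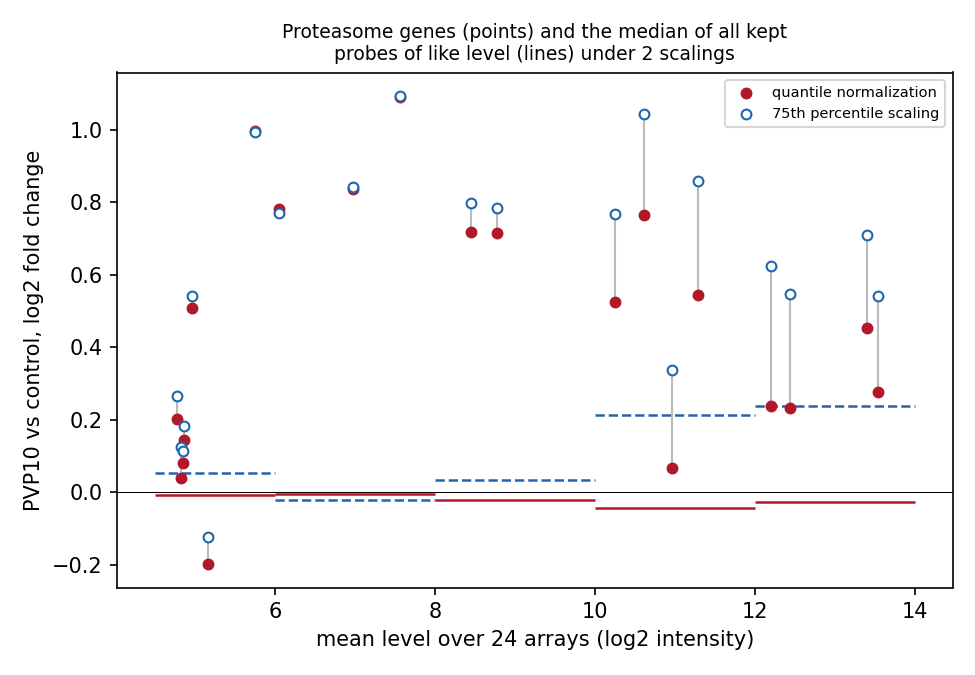
The log2 fold change of each kept proteasome gene in PVP10 against control (points, quantile normalization filled and 75th percentile scaling open) by its mean log2 intensity over 24 arrays, with the median of all kept probes of like level as lines. The open points leave the filled ones above a level of about 10, where the dashed line also rises to 0.21 and 0.24.

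The 75 nm PVP particle was compared with the same control arrays as PVP10, so the 2 comparisons share them. Of the 20 kept members 4 rose and 0 fell, with a median log2 fold change of 0.19, while 2.56% of all probes were called higher and 2.74% lower. All 4 were among the 14 fully detected members, whose median was 0.29, and 3.71% of all fully detected probes were called higher. They were Psma1 (0.54, SE 0.143, limma adjusted p = 0.0226), Psmd2 (0.48, SE 0.139, adjusted p = 0.038), Psmb2 (0.47, SE 0.102, adjusted p = 0.00512) and Psmd12 (0.29, SE 0.0844, adjusted p = 0.036). Psmd4 (0.37, adjusted p = 0.0543) and Psmb3 (0.29, adjusted p = 0.0546) lay just outside the threshold. Each was called under 8 of the 12 alternatives other than leaving out 1 array. Among these were the fits without background correction, without the chip term and with the chip as a random block. Every PVP75 array lay above every control array for Psmb2, Psmb3, Psmd4 and Psmd12, 4 of 20, against 4.47% of all probes.

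Of the 4 genes called in PVP75, Psmb2 alone kept its call when any 1 array was left out. The count lay between 1 and 6 over those fits, and Psma1, Psmd12 and Psmd2 lost their calls without 3, 6 and 7 of the 24 arrays, with adjusted p of up to 0.0722, 0.121 and 0.122. The arrays were control replicates 1 and 4 and PVP75 replicate 2 for Psma1, control replicates 1, 2 and 4 and PVP75 replicates 1, 2 and 3 for Psmd12, and all 4 control replicates and PVP75 replicates 1, 3 and 4 for Psmd2. Only 1 PVP75 array was on chip 2, where 1 member and 1.59% of all probes were called, and only 1 control array was on chip 1, where 0 members and 0.216% of all probes were called. The calls of Psmd12 and Psmd2 were also lost without the chip term (adjusted p = 0.0538 and 0.0695) and with the chip as a random block (0.0524 and 0.0655). With the replicate block added, Psmd12 was not called and Psmd4 was, with 4 calls as before.

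**Figure D4:**
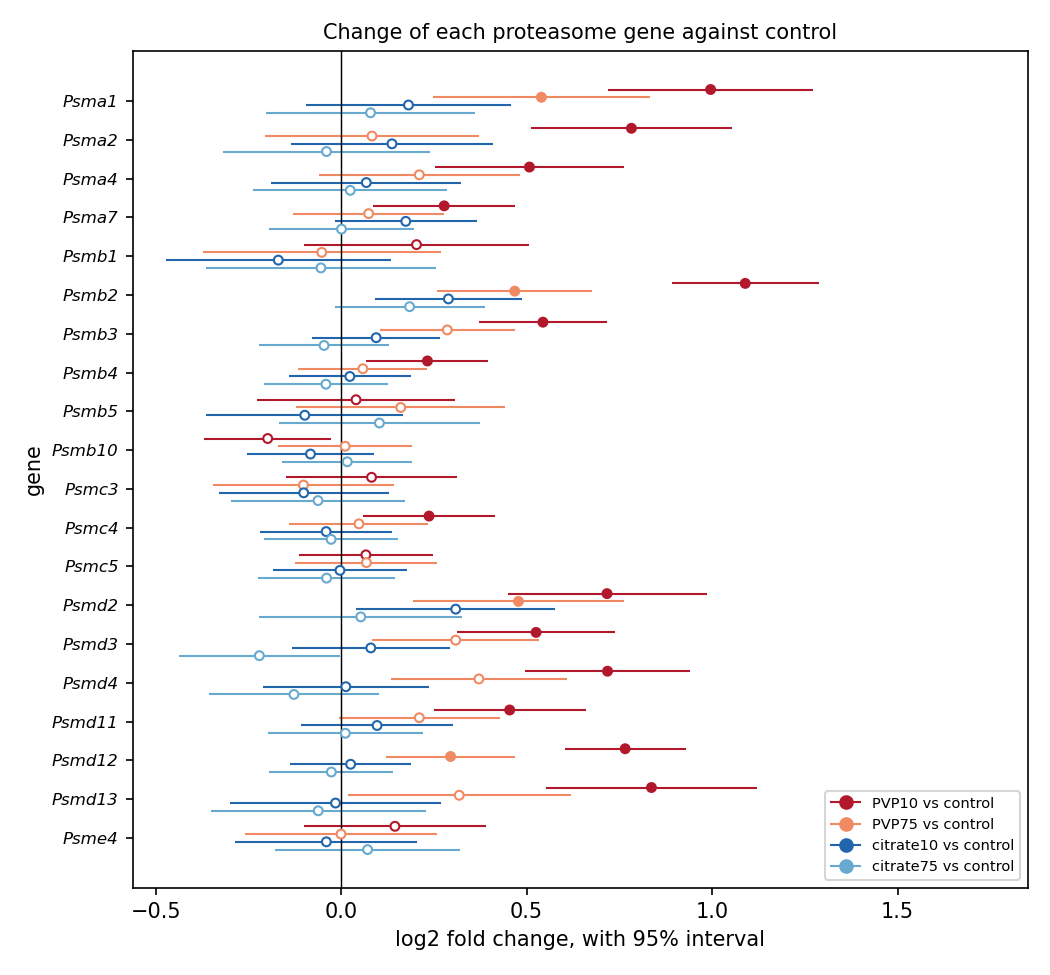
The log2 fold change of each kept proteasome gene against control, with its 95% interval, for PVP10, PVP75, citrate10 and citrate75 (filled points are called at an adjusted p under 0.05, and all 4 comparisons share the 4 control arrays). PVP10 has filled points for 14 genes and PVP75 for 4, and the citrate intervals mostly span 0.

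Set directly against PVP75, PVP10 had higher levels of Psma1, Psma2, Psmb2, Psmb3, Psmd4, Psmd12 and Psmd13, 7 of the 20 kept members, and 0 were lower. Over all probes 13% were called higher and 15% lower. The differences of these 7 genes ran from 0.26 for Psmb3 (SE 0.082, limma adjusted p = 0.0178) to 0.70 for Psma2 (SE 0.129, adjusted p = 0.000128), with 0.62 for Psmb2 (SE 0.0941, adjusted p = 8.74e-06). Every PVP10 array lay above every PVP75 array for Psma1, Psma2, Psmb2 and Psmd12, 4 of 20, against 7.68% of all probes. Psmd2, called against control with both particles, did not pass here (0.24, 95% interval -0.02 to 0.50). The call of Psmb3 was lost without PVP10 replicate 5 (adjusted p = 0.074) and that of Psmd4 without PVP10 replicate 2 (adjusted p = 0.0673). On chip 1 alone 4 members were called and on chip 2 alone 3, with 13.6% and 12.6% of all probes called in either direction, against 28% in the fit of both chips.

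With citrate-coated particles 0 of the 20 kept members were called against control by limma at either size. The median log2 fold change was 0.02 in citrate10 and -0.03 in citrate75. Over all probes 0.036% were called higher and 0% lower in citrate10, and 0% in either direction in citrate75. At an unadjusted p under 0.05, limma listed 2 members in citrate10, Psmb2 (0.29) and Psmd2 (0.31), and 1 in citrate75, Psmd3 (-0.22), as it did 4.15% and 8.72% of all probes. Their limma adjusted p were 0.997, 0.997 and 0.572. All 5 citrate10 arrays lay above all 4 control arrays for Psmb2 and Psmd2, 2 of 20, against 0.721% of all probes. For 0 members did citrate75 and control not overlap, while over all probes 2.16% lay wholly above control and 1.59% wholly below. For Psma1 the 95% interval of the citrate10 difference ran from -0.09 to 0.46, which leaves a rise of up to that size unresolved. Between the citrate sizes 0 members were called, against 0.108% of all probes higher and 0.036% lower.

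At equal size, the coating went with different levels of the proteasome genes. Against citrate10, PVP10 had 12 of the 14 fully detected members called higher and 0 lower, where 25.4% of all fully detected probes were higher. Over the 20 kept members 14 were higher and 0 lower, where 20.4% of all probes were higher and 21.4% lower. Differences of 0.74 or more were found in Psmd13 (0.85, SE 0.13, limma adjusted p = 3.85e-06), Psma1 (0.81, SE 0.126, adjusted p = 5.01e-06), Psmb2 (0.80, SE 0.0906, adjusted p = 2.65e-08) and Psmd12 (0.74, SE 0.0748, adjusted p = 3.41e-09). The 14 included Psmb1 (0.37, a bound of at least 1.04-fold, limma adjusted p = 0.0313), which passed the detection filter only through PVP10, with 2 of its 5 detections there and 0 in citrate10, so its call supports nothing. The groups overlapped, and the call was lost without any 1 of 7 arrays (PVP10 replicates 2, 3 and 5 and citrate10 replicates 1 to 4), with adjusted p of up to 0.155. It was also lost without background correction and in the authors' normalized table (0.13 in both), without a detection filter, with array weights and on either chip alone, with adjusted p from 0.0506 to 0.277. The 14 did not include Psma7 (0.10, 95% interval -0.08 to 0.28). Psmb4 (0.21, adjusted p = 0.0258) lost its call without PVP10 replicate 2 or citrate10 replicates 2 or 3, with adjusted p of up to 0.0803. On chip 1 alone 8 members were called and on chip 2 alone 10, with 18.8% and 36.9% of all probes called in either direction, against 41.7% in the fit of both chips.

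Against citrate75, PVP75 had 7 members called higher and 0 lower, where 6.63% of all probes were higher and 7.5% lower. They were Psma1, Psmb2, Psmb3, Psmd2, Psmd3, Psmd4 and Psmd12, with differences from 0.28 for Psmb2 to 0.53 for Psmd3 (SE 0.0987, limma adjusted p = 0.000609). The calls of Psmb2 and Psmd2 were lost without 6 and 3 of the 24 arrays, with adjusted p of up to 0.124 and 0.0941. For Psmb2 these were PVP75 replicates 2, 4 and 5 and citrate75 replicates 2, 3 and 4. For Psmd2 they were PVP75 replicate 3 and citrate75 replicates 1 and 5. Psmb2 also lost its call without the chip term, with the chip as a random block, with array weights and without a detection filter. The call of Psma1 was lost with array weights and without a detection filter, and that of Psmd2 without the filter. With 4 of 5 PVP75 arrays on chip 1, 1 member and 4.51% of all probes were called on that chip alone, and 0 members and 0.505% of all probes on chip 2 alone.

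Whether the effect of size differed between the coatings was tested as an interaction. It was called for 3 of the 20 kept members, Psmb2, Psmd12 and Psma2, all with a larger excess of the 10 nm particle under PVP, while 7.07% of all probes had a positive call and 8.11% a negative one. The difference of differences was 0.52 for Psmb2 (SE 0.129, limma adjusted p = 0.00623), 0.42 for Psmd12 (SE 0.106, adjusted p = 0.00721) and 0.52 for Psma2 (SE 0.177, adjusted p = 0.0439). The call of Psma2 was lost without any 1 of 12 arrays, 4 from PVP10, 3 from PVP75, 3 from citrate10 and 2 from citrate75 (among them citrate75 replicate 4), with adjusted p of up to 0.11, and also with 75th percentile scaling or without the chip term. Psmd13 (0.47, adjusted p = 0.0882) was called without PVP75 replicate 3 or citrate75 replicate 2, with adjusted p between 0.00983 and 0.025. Over the 14 fully detected members the median was 0.18. The calls of Psmb2 and Psmd12 were lost on either chip alone, with adjusted p between 0.169 and 0.356. The 2 members called on chip 2 alone, with 5.08% of all probes, were Psma2 and Psmd13, and the call of Psma2 was lost on chip 1 alone. For the other 17 members the interaction did not pass.

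Genes that work beside the proteasome were taken from lists of 56 genes drawn up with results of these data known, so they are no independent evidence. Of these, 40 genes had a probe and 11 were kept, with 12 probes. In PVP10 11 of the 12 probes rose and 0 fell, with a median log2 fold change of 0.84, where 20.1% of all probes were called higher. In PVP75 5 rose and 0 fell, where 2.56% of all probes were called higher, while 0 were called in citrate10 or citrate75. Sqstm1, a ubiquitin-binding autophagy receptor, rose by 3.04 and 2.54 on its 2 kept probes in PVP10 and by 1.58 and 0.85 in PVP75. Zfand5, a ubiquitin-binding activator of the proteasome, rose by 1.60 (SE 0.123) in PVP10 and by 1.08 (SE 0.13) in PVP75. The shuttle Ubqln2, which carries ubiquitylated proteins to the proteasome, rose by 0.83 in PVP10 and was not called in PVP75 (0.26, limma adjusted p = 0.505).

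All 4 kept genes of the segregase, which extracts ubiquitylated proteins from complexes and membranes, rose in PVP10, where 20.1% of all probes were higher. They were Vcp, its ATPase (0.42, SE 0.115), and its cofactors Ufd1 (1.19, SE 0.134), Nploc4 (0.96, SE 0.128) and Nsfl1c (0.85, SE 0.124). In PVP75 0 of them were called, where 2.56% of all probes were higher. Estimates there were 0.40 for Nploc4 and Ufd1 (limma adjusted p = 0.0773 and 0.0988), 0.24 for Vcp and 0.14 for Nsfl1c. Ufd1 was detected on 15 of 24 arrays, 5 of 5 in PVP10 and 2 of 4 in control. The deubiquitinases Uchl5 and Usp14, which bind the cap, rose as well, by 0.66 (SE 0.107) and 0.44 (SE 0.107), and Uchl5 also rose in PVP75 (0.39, limma adjusted p = 0.038). Of the partners that bind antioxidant response elements, Mafg rose in both PVP groups (0.57 and 0.46), and Maff had a log2 fold change of 0.15 in PVP10 (limma adjusted p = 0.368). No probe carried the symbol Nfe2l1, so the level of that factor was not measured. From the same list Nfe2l2, Mafk, Bach1, Keap1 and Ngly1 were detected on 0 arrays. Adrm1, a ubiquitin receptor of the cap, was detected on 3 arrays and Pomp, a maturation factor of the core, on 1, so neither was tested, and the lists of ubiquitin supply and of antigen processing had 0 kept genes.

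Markers of other cell types were checked beside these results. The summed level (log2) of 6 astrocyte markers with a probe was 7.13 to 7.21 on the control arrays, 9.09 to 10.33 in PVP10, 8.88 to 9.35 in PVP75, 7.74 to 8.10 in citrate10 and 7.19 to 7.32 in citrate75. Only Slc1a2, a glutamate transporter, was detected among them, and the defining markers Gfap and Aqp4 were detected on 0 arrays. The summed level of 11 endothelial markers was 10.24 to 10.46 in control and 9.94 to 10.31 in PVP10. Neuron markers, 3 of 7 kept, spanned 7.45 to 7.57 in control and 7.39 to 7.61 in PVP10, and of pericyte, fibroblast and microglia or leukocyte markers 0 were kept. The part of the astrocyte list in the proteasome result was not tested.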

How the data were processed

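Members and gene lists were chosen with earlier results of these data known. Per the file headers, the deposited table gives a bead intensity on a linear scale and a detection p-value for each of 22523 probes on 24 arrays. From the values, the authors neither subtracted background from that intensity nor normalized it. The submitters' processing notes name GenomeStudio 2011.1, with other steps not given in the sources. A second table of the authors, of quantile-normalized intensity, served as an alternative. Background was corrected by normexp in R 4.3.3 (limma 3.58.1, offset 16), with negative controls inferred from the detection p-values, followed by quantile normalization and log2. Probes with a detection p under 0.01 on at least 4 arrays were kept (2774). A linear model with group and BeadChip was fitted to 24 arrays (lmFit, eBayes), with Benjamini-Hochberg adjustment over 2774 probes within each comparison and calls at an adjusted p under 0.05. It was tested on simulated data. Levels are compared only within a probe. A group without any detection of a probe has only a bound there, taken as the dimmest detected signal of each array or, where higher, the probe's own level. The number of arrays limits precision, with a median standard error of 0.104 to 0.118 (log2) per pairwise comparison. Standard errors were larger for the interaction, as for Psmb2 with 0.129 against 0.0906 for PVP10 against citrate10. Symbols came from the platform annotation, of which 13752 Entrez identifiers matched the GRCr8 table and 0 symbols changed. Every kept member is named. Values on every array are given for the 6 members with the smallest p in PVP10 against control and for any kept member lower there, with Psma2 added. Pathway genes called with a PVP particle are named. Alternatives changed the background correction, offset, normalization, filter, chip term, array weights and replicate block, and left out each array in turn. No sample was left out.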

Additional observations from a re-analysis of the deposited data

Results flagged for a closer look

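In 100 groups of 4 or 5 arrays of a kept proteasome gene, 4 held an array far from the rest by Dixon's test, of which chance flags about 1 in 20. Psma2 was at 6.27 on citrate75 replicate 4, against 5.65 to 5.78 on the other 4. Psmb10 was at 5.46 on PVP75 replicate 2, against 5.05 to 5.09, and that was the 1 PVP75 array on chip 2. Psmd12 was at 10.12 on citrate75 replicate 1, against 10.37 to 10.45, and Psmd3 was at 10.08 on citrate75 replicate 2, against 9.79 to 9.86.

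For 3 of the 20 kept genes the effect of size differed between the PVP and citrate coatings by limma's test of the interaction. Over all probes 7.07% had a positive call and 8.11% a negative one. The call of Psma2 was lost without any 1 of 12 arrays, and those of Psmb2 and Psmd12 on either chip alone. The difference was 0.52 for Psma2 (adjusted p = 0.0439), 0.52 for Psmb2 (adjusted p = 0.00623) and 0.42 for Psmd12 (adjusted p = 0.00721), on the log2 scale.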

How the results depend on the processing

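The count of proteasome genes called higher in PVP10 against control was 14 and lay between 11 and 14 with 1 array left out and at 7 on chip 1 alone, while the share of all probes called in either direction went from 41.5% to 13.2% on that chip. Shares given below are of the same kind. Within a chip the counts rest on fewer arrays, since 1 control array was on chip 1 and 1 PVP75 array on chip 2. For PVP75 against control the count of 4 (5.3% of all probes) became 2 without a detection filter (0.315%), 1 on chip 2 (1.59%), 0 on chip 1 (0.216%), 7 with array weights (7.61%) and 1 to 6 with 1 array left out. For PVP10 against PVP75 the count of 7 (28%) became 11 without background correction and in the authors' normalized table (28.9%), 12 with 75th percentile scaling (26.4%), 3 on chip 2 (12.6%), 4 on chip 1 (13.6%) and 6 to 10 with 1 array left out. For PVP10 against citrate10 the count of 14 (41.7%) became 8 on chip 1 (18.8%) and 12 to 15 with 1 array left out. For PVP75 against citrate75 the count of 7 (14.1%) became 12 with 75th percentile scaling (14.7%), 4 without a filter (0.91%), 0 on chip 2 (0.505%), 1 on chip 1 (4.51%) and 6 to 8 with 1 array left out. The interaction count of 3 (15.2%) became 0 on chip 1 (1.3%), 5 with array weights (17.9%) and 2 to 4 with 1 array left out. Between the citrate sizes the count of 0 (0.144%) became 1 (Psmd3) with array weights (2.56%). The causes were not tested. No fold change of a called gene changed sign under any alternative run.

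Arrays share replicate numbers between groups. Over 46 same-numbered pairs the correlation of deviations had a median of 0.00255 (range -0.169 to 0.262), and 7 were over 0.1. Over 184 pairs of different number the median was 0.00219, and 19 were over 0.1. Only 4 of 24 arrays correlated best with their own number. These values show no clear pairing by number, but they cannot exclude that same-numbered arrays were handled together. With the replicate block the counts against control were 14 in PVP10 (40.7% of all probes called in either direction) and 4 in PVP75 (5.05%). They were 0 in citrate10 (0.036%) and citrate75 (0%). The count was 7 for PVP10 against PVP75 (27.7%) and 14 for PVP10 against citrate10 (41.3%). It was 7 for PVP75 against citrate75 and 3 for the interaction, as without the block. Without it, 6.63% of all probes were higher and 7.5% lower for PVP75 against citrate75, and 7.07% and 8.11% for the interaction. For 24 of 44 probes signal limits what can be said, since they were not detected on any array.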
